A study of Arabidopsis thaliana with 8 samples.

Results

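Transcripts of 9 nuclear genes that govern plastid transcription and greening were examined in developing seeds of *Arabidopsis thaliana*, out of 38209 genes listed in each deposited table. The genes were picked by locus code and function, with earlier results of these data known. They are the 6 sigma factor genes *SIG1* to *SIG6*, the plastid RNA polymerase gene *SCA3* (also *RPOTp*) and the greening regulators *GLK1* and *GLK2*. Seeds came from 4 genotypes with 2 biological replicates each, the wild type Col-0, *pkr2-2*, *pkl-1* and the double mutant *pkr2-2;pkl-10*, all in the Col-0 background. *pkr2-2* carries a T-DNA insertion (SALK_115303) in *PICKLE RELATED 2* (*PKR2*), and *pkl-1* and *pkl-10* (a T-DNA insertion, GABI_273E06) are different alleles of *PICKLE* (*PKL*), so the single and the double mutant do not share a *pkl* allele. *PKL* and *PKR2* encode CHD3-type chromatin remodelers. Plants grew under 16 h of light at 21 °C and 8 h of dark at 18 °C, and each replicate pooled the seeds of at least 30 siliques. The tissue label places the harvest at 4 days after pollination and the extraction protocol at 3. A seed holds an embryo, an endosperm and a maternal seed coat, and the libraries do not separate them, so fewer cells of a type and less RNA per cell cannot be told apart.

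Chloroplast genes are read by a pair of RNA polymerases. The plastid-encoded polymerase (PEP) is of bacterial type: its core subunits, *rpoA*, *rpoB*, *rpoC1* and *rpoC2*, are genes of the chloroplast itself, and it finds its promoters only through sigma factors made in the nucleus. The nucleus-encoded polymerase SCA3 is a single-subunit enzyme related to those of phages and reads, among others, the genes for the PEP core. GLK1 and GLK2 are transcription factors that switch on nuclear genes for chlorophyll synthesis and light harvesting. The Arabidopsis embryo turns green during seed development, and the seed coat holds plastids of its own.

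Expression is given in FPKM, a fragment count corrected for transcript length and library size. The deposited tables hold 1 FPKM value per genotype, which the authors pooled over both replicates, so the spread between replicates is not known and no test over them was computed here. The p-values and q-values of the authors' own comparisons, which the tables also hold, were not used. What 1 fragment is worth was read from the lowest FPKM steps of transcripts of at least 2000 nucleotides, and it gives the approximate number of fragments behind each value. Intervals given in brackets are exact 95% intervals of a ratio from these numbers. They cover counting error only, not the variation between plants or libraries. Relative to the reference genotype of the same table, depth ranged from 0.916 in *pkr2-2* to 1.72 in the double mutant against *pkr2-2*. The same genotype differed between tables by a constant factor of up to 1.20, so ratios were taken within a table. A gene was counted as different when it differed by at least 2-fold (1 on the log2 scale) and reached 1 FPKM in 1 or both genotypes. *PKR2* was at 0.168 FPKM in *pkr2-2*, while Col-0 had 3.06. *PKL* was at 2.44 FPKM in the double mutant (Col-0 13.6), but at 15.2 in *pkl-1* (Col-0 12.8), so its transcript level does not check the *pkl-1* label. All 6 seed coat markers, among them *BAN* and *STK*, were at 12.5 FPKM or more in every genotype of the tables with Col-0. All 6 were higher than in Col-0 in *pkl-1* (sum 5228 against 4460 FPKM) and in the double mutant (5087 against 4740). *TT16* was at 34.8 against 14.5 FPKM in the double mutant. In *pkr2-2* the sum was 4345 against 4068 FPKM, with *BAN* slightly lower (625 against 630). The 3 embryo markers were all present in Col-0 and lower in *pkl-1* and the double mutant, their summed level being 15.6 FPKM against 99.2 and 6.98 against 105.5. *LEC1*, a master regulator of embryo development, made up most of this difference, at 5.45 FPKM in the double mutant where Col-0 had 99.9. In *pkr2-2* the embryo sum was 70.8 FPKM against 90.4. The 6 endosperm markers summed to 19.1 FPKM in the double mutant (Col-0 46.9), 26.1 in *pkl-1* (Col-0 44.1) and 31.5 in *pkr2-2* (Col-0 40.2). *FWA* was the largest of them in every genotype. *AGL62* went the other way, at 2.01 against 0.531 FPKM in the double mutant and 1.72 against 0.500 in *pkl-1*, where the others were lower. In *pkr2-2*, *ZOU* was slightly higher (8.51 against 8.20 FPKM). Of 5 genes listed as markers of the silique wall, *FUL* (6.07 against 0.749 FPKM), *IND* and *ALC* were higher in the double mutant than in Col-0 and *FIL* was lower. The sum of the 5 was 114 against 43.1, most of it *ALC* (104 against 35.4). It was also higher in *pkl-1* (89.2 against 40.5 FPKM) and in *pkr2-2* (55.4 against 37.0). No marker was listed at 0. The part of these tissue markers in the results below was not tested.

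The upstream sequences of *GLK1*, *GLK2* and *SIG5* are shown because *GLK1* and *SIG5* had the largest log2 fold changes when the double mutant was set against Col-0, and *GLK2* is the close relative of *GLK1* that differed little. In *pkl-1* against Col-0, *SIG3* and *SIG4* differed more. Each run holds the 250 bases before the annotated gene start, read from the TAIR10.1 genome (NCBI RefSeq) 5′ to 3′ on the strand of the gene, with matches to the searched motifs in capitals. They lie at chr2:8855052-8855301 (plus strand), chr5:17798012-17798261 (plus strand) and chr5:8160344-8160593 (minus strand).
GLK1: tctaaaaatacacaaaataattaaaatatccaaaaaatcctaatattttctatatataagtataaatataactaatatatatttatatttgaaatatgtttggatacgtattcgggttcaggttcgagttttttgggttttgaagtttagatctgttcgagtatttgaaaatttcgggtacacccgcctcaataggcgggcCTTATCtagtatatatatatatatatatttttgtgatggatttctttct
GLK2: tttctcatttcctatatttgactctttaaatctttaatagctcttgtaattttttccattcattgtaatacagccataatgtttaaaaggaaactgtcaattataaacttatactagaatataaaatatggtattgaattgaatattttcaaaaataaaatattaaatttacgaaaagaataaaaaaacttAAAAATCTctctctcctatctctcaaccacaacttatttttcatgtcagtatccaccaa
SIG5: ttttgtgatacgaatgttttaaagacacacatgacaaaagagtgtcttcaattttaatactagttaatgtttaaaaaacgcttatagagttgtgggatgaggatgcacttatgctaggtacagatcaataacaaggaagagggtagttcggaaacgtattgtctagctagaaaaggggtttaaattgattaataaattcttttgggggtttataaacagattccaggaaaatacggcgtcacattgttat

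The motifs searched on both strands were CACGTG (G-box), AAAATATCT (evening element), AAAAATCT (CCA1-binding site), CCAATC (a GLK-type motif), GATAAG (I-box) and AAACCCTA (telobox). None of these overlapped another in the 9 windows. The capitals in *GLK1* mark an I-box on the opposite strand, 49 to 44 bases before the gene start, a motif held by 12.3% of 27443 promoters of the same length. In *GLK2* they mark a CCA1-binding site 59 to 52 bases before the start, which 6.69% of promoters hold. *SIG5* held no match to any of the 6 motifs in this window. Among the other genes, *SIG3* held an evening element and an I-box, *SIG4* a CCA1-binding site and *SIG2* a pair of GLK-type motifs on the opposite strand (10.2% of promoters hold 1 or more). *SIG1*, *SIG6* and *SCA3* held no match. A G-box was found in 0 of the 9 windows and in 6.49% of all promoters, and a telobox in 0 of 9 and in 4.49%. The upstream windows of *SIG1*, *SIG2*, *SIG3* and *SIG6* run into a neighbouring gene. A match is a description of the letters only.

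The genes themselves are scattered over the nuclear genome (TAIR10.1). *SIG1* (AT1G64860) lies on chromosome 1 from 24097736 to 24100970, *SIG2* (AT1G08540) on chromosome 1 from 2703295 to 2706860 and *SIG3* (AT3G53920) on chromosome 3 from 19960789 to 19963980. *SIG4* (AT5G13730) lies on chromosome 5 from 4429095 to 4430901 and *SIG5* (AT5G24120) on the same chromosome from 8157151 to 8160343. *SIG6* (AT2G36990) lies on chromosome 2 from 15537225 to 15540139, *SCA3* (AT2G24120) from 10248851 to 10254641 and *GLK1* (AT2G20570) from 8855302 to 8857758. *GLK2* (AT5G44190) lies on chromosome 5 from 17798262 to 17800926. The files name *SIG1*, *SIG3*, *SIG5*, *SIG6* and *GLK1* as SIGA, SIGC, SIGE, SIGF and GPRI1. The longest annotated transcripts run from 1454 nucleotides in *SIG4* to 3695 in *SCA3*, with 4 to 17 exons. *SIG4* overlaps AT5G13720 on the opposite strand by 201 bases, and the sources used here do not state a strand-specific count. In the double mutant AT5G13720 was at 9.98 FPKM (Col-0 7.57), well above *SIG4*, so reads of the shared stretch cannot be told apart. *SCA3* and *SIG3* overlap a neighbour by 4 bases and 1 base.

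In Col-0 the 9 transcripts spanned a wide range of levels (in FPKM, which is per length, from the table with *pkr2-2*). *SIG6*, which acts early in chloroplast development of the seedling, was highest at 9.11 FPKM, above 59.5% of the genes detected. *SIG2*, which with PEP transcribes plastid tRNA genes, followed at 7.74 FPKM. *SIG1*, a sigma factor that responds to the redox state of photosynthesis, was at 5.24. *GLK2* was at 4.55 FPKM and *SIG5*, a sigma factor that links light, stress and the circadian clock to *psbD* transcription, at 4.26. Neither *SIG1* and *GLK2* nor *GLK2* and *SIG5* were resolved, since their ratios were within counting error (1.15 [0.992 to 1.34] and 1.07 [0.910 to 1.25]). *SIG3*, known for the *psbN* promoter, was at 1.59 FPKM, *SCA3* at 0.860 and *SIG4*, known for *ndhF*, at 0.484. *GLK1* was lowest at 0.276 FPKM, or about 18 fragments, and did not differ from *SIG4* beyond counting error (ratio of *SIG4* to *GLK1* 1.75 [0.922 to 3.35]). *GLK2* was thus the predominant *GLK* transcript of Col-0 seeds, at 16.5 times the level of *GLK1*.

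**Figure D1:**
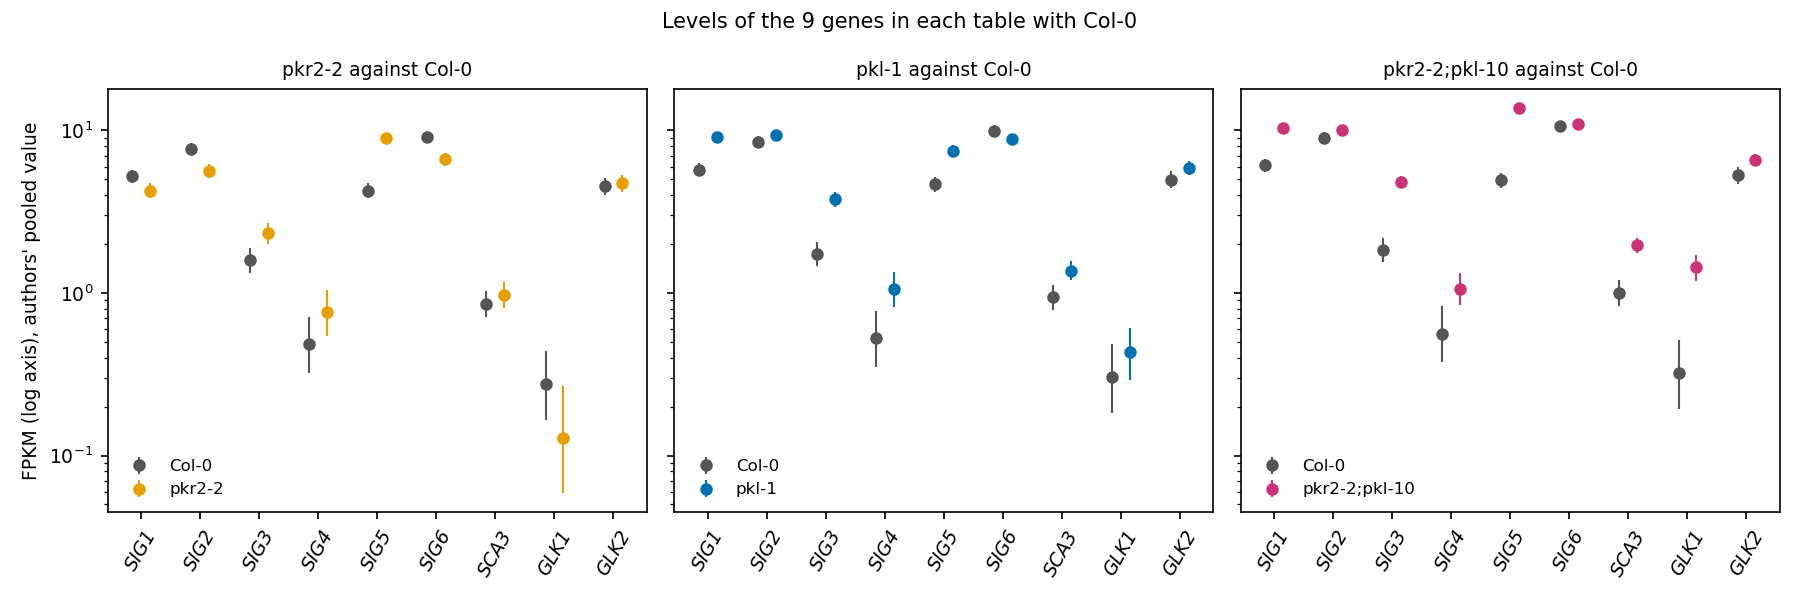
FPKM on a log axis for the 9 genes in the 3 tables that hold Col-0 (grey) and a mutant (colour). Points are the authors' values pooled over 2 replicates and bars are exact 95% Poisson intervals for counting error only. In the right panel *GLK1* stands at 0.322 (grey) and 1.44 FPKM (colour), and *SIG5* at 4.97 and 13.7.

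The order differed in the mutants. In *pkr2-2*, *SIG5* came first at 8.99 FPKM, ahead of *SIG6* at 6.66 (ratio 1.35 [1.20 to 1.52]). In *pkl-1*, *SIG2* (9.37 FPKM), *SIG1* (9.09) and *SIG6* (8.89) were level within counting error, and *SIG5* was at 7.52. In the double mutant, *SIG5* was again first at 13.7 FPKM, above *SIG6* at 11.04 (ratio 1.24 [1.15 to 1.34]), while *SIG6*, *SIG1* (10.4) and *SIG2* (10.03) were not resolved from each other. *SIG4* (1.06 FPKM) took the last place there from *GLK1* (1.44). The sum over the 6 sigma factor transcripts was 28.7 FPKM in *pkr2-2* against 28.4 in Col-0, 39.7 against 31.2 in *pkl-1*, and 51.1 against 33.1 where both remodelers were lost. Its make-up shifted. *SIG5* held 15.0% of the summed FPKM in Col-0 and 18.9% in *pkl-1*, but 31.3% in *pkr2-2* and 26.8% in the double mutant. *SIG6* held 32.1% in Col-0 and between 21.6% and 23.2% in the mutants. *SIG2* went from 27.2% to between 19.6% and 23.6%, and *SIG3* from 5.59% to between 8.14% and 9.52%.

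**Figure D2:**
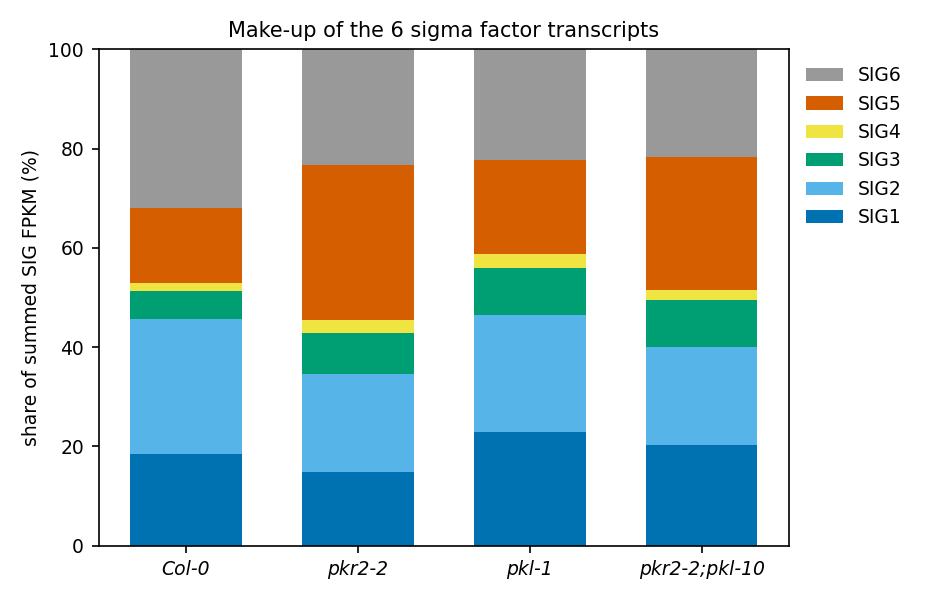
Share of each sigma factor gene in the summed FPKM of *SIG1* to *SIG6*, in percent, for each genotype (Col-0 from the table with *pkr2-2*). *SIG5* takes 15.0% in Col-0 and 31.3% in *pkr2-2*, and *SIG6* 32.1% and 23.2%.

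Loss of *PKR2* alone was examined in *pkr2-2* against Col-0. *SIG5* was higher, at 8.99 against 4.26 FPKM, a log2 fold change of 1.08 [0.89 to 1.27], and was the only one of the 6 genes that passed the level filter to differ by 2-fold. With 1 FPKM added its log2 fold change was 0.92. Of all 17893 genes that passed, 5.09% were at least 2-fold higher and 3.11% at least 2-fold lower. *SIG3* was at 2.33 against 1.59 FPKM (log2 fold change 0.56 [0.22 to 0.88]). The transcripts that led in Col-0 were lower. *SIG6* was at 6.66 against 9.11 FPKM (log2 fold change -0.45 [-0.62 to -0.28]), *SIG2* at 5.66 against 7.74 (-0.45 [-0.64 to -0.27]) and *SIG1* at 4.27 against 5.24 (-0.29 [-0.50 to -0.08]). *GLK2* was at 4.76 against 4.55 FPKM, within counting error (0.07 [-0.18 to 0.31]). The remaining genes were below 1 FPKM in both genotypes. Of these, *GLK1* was at 0.128 against 0.276 FPKM, a log2 fold change of -1.11 that rests on about 8 and 18 fragments, and its interval of -2.45 to 0.23 holds no difference. *SIG4* (0.765 against 0.484 FPKM) and *SCA3* (0.972 against 0.860) did not differ beyond counting error either. Over the 9 genes, 5 were higher (52.3% of all genes were), and the median log2 fold change was 0.07, beside 0.02 over all genes.

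In *pkl-1* against Col-0, 8 of the 9 genes were higher, and the median log2 fold change was 0.54, beside -0.02 over all genes, of which 48.7% were higher. *SIG3* was at 3.78 against 1.74 FPKM (log2 fold change 1.12 [0.82 to 1.41]) and *SIG4* at 1.06 against 0.530 (1.00 [0.33 to 1.70]). They were the 2 of 8 genes passing the filter that differed by 2-fold, while 9.81% of all 18374 genes were at least 2-fold higher and 8.34% at least 2-fold lower. *SIG4* passed the filter only through its level in *pkl-1* and lies at the threshold itself. With 1 FPKM added both were under 2-fold (0.80 for *SIG3* and 0.43 for *SIG4*). *SIG5* was at 7.52 against 4.67 FPKM (0.69 [0.50 to 0.87]) and *SIG1* at 9.09 against 5.75 (0.66 [0.49 to 0.83]). *SCA3* was at 1.37 against 0.943 FPKM (0.54 [0.21 to 0.88]) and *GLK2* at 5.90 against 4.98 (0.24 [0.02 to 0.46]). *SIG6* was the one gene below its Col-0 level, at 8.89 against 9.99 FPKM (-0.17 [-0.32 to -0.02]). For *SIG2* (9.37 against 8.49 FPKM) and *GLK1* (0.433 against 0.302) the interval held no difference.

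All 9 genes were higher in the double mutant than in Col-0, where 51.9% of all genes were. The median log2 fold change was 0.91, beside 0.03 over all genes. *GLK1* differed most, at 1.44 against 0.322 FPKM, 4.47-fold (log2 fold change 2.16 [1.41 to 2.93]), from about 18 to about 125 fragments. Its level in Col-0 was under 1 FPKM, so it entered through the double mutant alone. With 1 FPKM added to all values, its log2 fold change was 0.88, under 2-fold and below those of *SIG5* (1.301) and *SIG3* (1.03). *GLK2* was at 6.57 against 5.30 FPKM (0.31 [0.10 to 0.52]), and its excess over *GLK1* was 4.56-fold here. *SIG5* was at 13.7 against 4.97 FPKM, 2.76-fold (1.46 [1.297 to 1.64]), and *SIG3* at 4.84 against 1.85, 2.61-fold (1.39 [1.11 to 1.67]). These 3 of 9 genes differed by at least 2-fold, all of them higher, beside 15.2% of 18768 genes higher and 11.2% lower. Just under the threshold, *SCA3* was at 1.96 against 1.00 FPKM (0.97 [0.67 to 1.28]) and *SIG4* at 1.06 against 0.563 (0.91 [0.26 to 1.59]). *SIG1* was at 10.4 against 6.10 FPKM (0.77 [0.61 to 0.93]). The leading sigma factors of Col-0 hardly differed. *SIG2* was at 10.03 against 9.03 FPKM (0.15 [0.01 to 0.30]) and *SIG6* at 11.04 against 10.6 (0.06 [-0.08 to 0.19]).

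**Figure D3:**
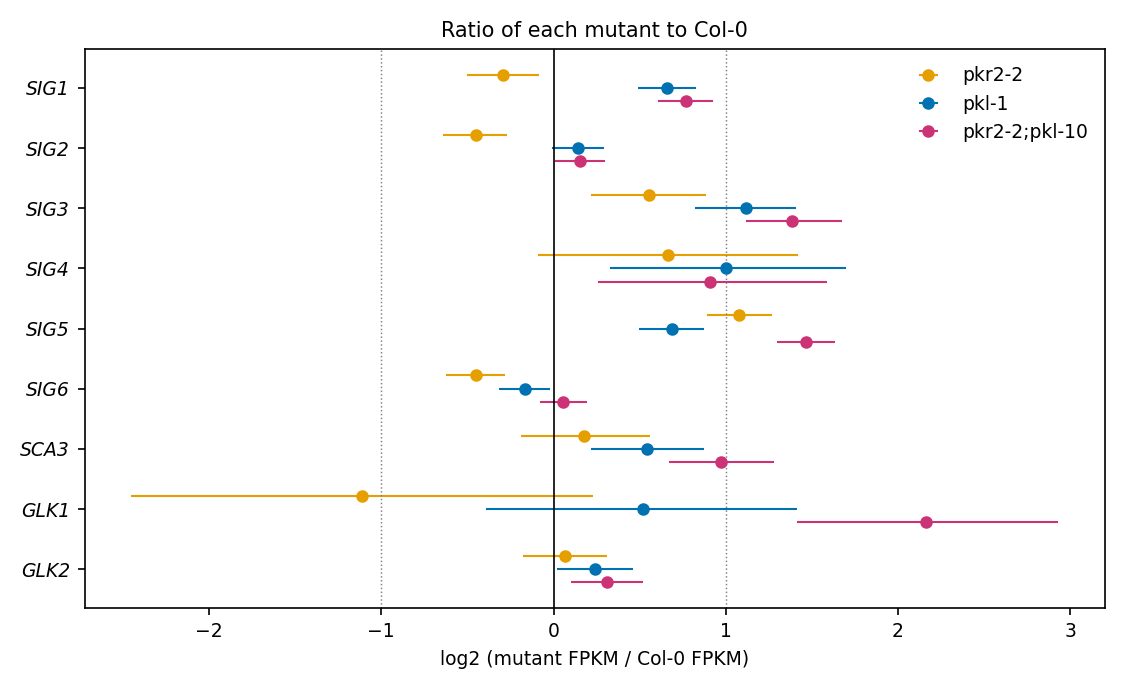
Log2 ratio of FPKM in each mutant to Col-0 for the 9 genes. Points are ratios of pooled values, bars are exact 95% intervals for counting error only, and dotted lines mark 2-fold. *SIG5* lies above 0 in all 3 mutants (1.08, 0.69 and 1.46), and *SIG6* and *SIG2* lie at -0.45 in *pkr2-2* and near 0 in the double mutant.

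The comparisons of *pkl-1* and of *pkr2-2* with Col-0 share the Col-0 libraries. The double mutant was therefore also set against each single mutant, which allows the same loss to be read in another background with no library shared. Against *pkr2-2*, all 9 genes were higher in the double mutant (50.7% of all genes were), with a median of 0.61 beside 0.01 over all genes. *GLK1* was at 1.46 against 0.151 FPKM, 9.69-fold (3.28 [2.17 to 4.44]), and *SIG1* at 10.6 against 5.04 (1.07 [0.89 to 1.25]). They were the 2 genes past 2-fold, beside 11.0% of 18836 genes higher and 9.56% lower. With 1 FPKM added *GLK1* stayed past 2-fold (1.097) and *SIG1* did not (0.94). *GLK1* rested on about 8 fragments in *pkr2-2*, below 1 FPKM, so it entered through the double mutant alone. *SIG3* (0.84), *SCA3* (0.80), *SIG2* (0.61), *SIG6* (0.51), *SIG5* (0.39) and *GLK2* (0.25) followed in log2 fold change, each with an interval above 0. For *SIG4*, at 1.07 against 0.903 FPKM, the interval of -0.32 to 0.84 held no difference. The loss of *PKL* in Col-0 (*pkl-1*) and in *pkr2-2* (*pkl-10*) thus gave log2 fold changes on both sides of 0 for *SIG6* (-0.17 and 0.51), and much the same value for *GLK2* (0.24 and 0.25).

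Against *pkl-1*, the double mutant differed least. *GLK1* was at 1.64 against 0.518 FPKM, 3.16-fold (1.66 [1.08 to 2.28]), and was the only 1 of 9 genes past 2-fold, beside 4.13% of 18828 genes higher and 2.94% lower, but not with 1 FPKM added (0.80). Below 1 FPKM in *pkl-1*, it entered through the double mutant alone here too. *SIG5* was at 15.6 against 8.995 FPKM (0.79 [0.66 to 0.92]), *SCA3* at 2.23 against 1.64 (0.44 [0.20 to 0.69]) and *SIG3* at 5.51 against 4.52 (0.28 [0.09 to 0.48]). *SIG6* was at 12.6 against 10.6 FPKM (0.24 [0.11 to 0.37]). For *SIG1*, *SIG2*, *SIG4* and *GLK2* the interval held no difference. The log2 fold change was above 0 in 8 of the 9, as in 56.6% of all genes, and the median was 0.24, beside 0.05 over all genes. Loss of *PKR2* gave log2 fold changes of opposite sign in the Col-0 and the *pkl* background for 5 of the 9 genes. For *GLK1* they were -1.11 and 1.66, for *SIG6* -0.45 and 0.24, for *SIG2* -0.45 and 0.03, for *SIG1* -0.29 and 0.12, and for *SIG4* 0.66 and -0.08. Only for *SIG6* did both intervals lie clear of 0. The share of all genes with opposite signs was not computed, so the count of 5 of 9 has nothing to be set beside. *SIG5* was higher in both (1.08 and 0.79), as was *SIG3* (0.56 and 0.28). These differences between backgrounds were not tested across replicates, and in the *pkl* background *pkl-1* is set against *pkl-10*.

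**Figure D4:**
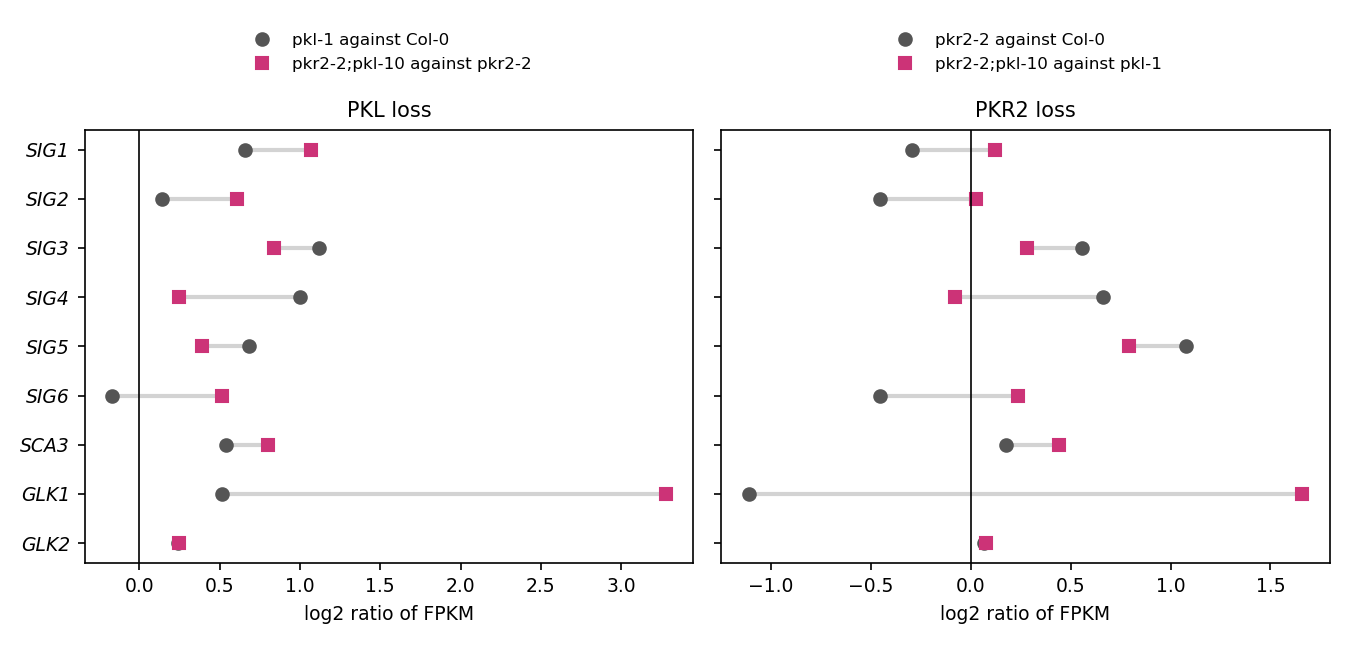
Log2 ratio of FPKM on loss of *PKL* (left) and of *PKR2* (right) for the 9 genes, in the wild-type background (circles) and in the other mutant's background (squares), joined by grey lines. *GLK1* moves from 0.52 to 3.28 on the left and from -1.11 to 1.66 on the right, while *GLK2* stays between 0.07 and 0.25 in all 4.

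The pattern of *GLK1* over the 5 comparisons was set against those of 16108 genes that reached 1 FPKM in all genotypes and tables, by the distance between the log2 fold changes. The nearest were *BCB* (AT5G20230, distance 0.73), *STM* (AT1G62360, 1.16), AT5G64120 (1.21), AT1G19380 (1.27) and *ENDO2* (AT1G68290, 1.29). *STM* encodes the homeobox factor that maintains the shoot meristem. *STM* was lower in *pkr2-2* than in Col-0 (-1.34) and higher in the double mutant (1.73). The log2 fold changes of *GLK1* had the same signs, but its interval in *pkr2-2* held no difference. The 5 comparisons share libraries, so these distances describe only a likeness.

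Other genes of organelle transcription did not share 1 direction. Of 12 genes for PEP-associated proteins, the partners that dock on the PEP core, 8 were lower in the double mutant than in Col-0 (median log2 fold change -0.41). By at least 2-fold, 3 were lower and none was higher, beside 11.2% and 15.2% of all genes. *TRX z*, a thioredoxin of this complex, was at 10.9 against 29.8 FPKM (-1.45) and *FSD2*, an iron superoxide dismutase, at 9.38 against 22.2 (-1.24). In *pkr2-2* 10 of the 12 were lower (median -0.40), none by 2-fold, and in *pkl-1* 7 were lower (median -0.20), with *FSD2* past 2-fold (7.91 against 20.8 FPKM). Against *pkr2-2*, *FSD2* (-1.26) and *TRX z* (-1.08) were again the ones past 2-fold, but 7 of the 12 were higher and 5 lower (median 0.06). Against *pkl-1*, 8 were lower (median -0.09), none by 2-fold. Of 7 partners of the sigma factors or PEP, *SIB2*, which encodes a sigma factor binding protein, was at 8.14 FPKM in *pkr2-2* against 2.32 in Col-0 (1.81), but at 2.80 against 2.70 in the double mutant. *SIB1*, its close relative, was at 1.46 against 0.471 FPKM there (1.63), a gene below the level required for naming. *PRIN2* and *MRL7*, both needed for full PEP activity, were lower in the double mutant than in Col-0 (-1.005 and -1.18). Against *pkr2-2*, the double mutant had *SIB2* (-1.76) and *PRIN2* (-1.32) lower. The other phage-type polymerase genes were chosen for mention after their values were seen. AT1G68990, for the mitochondrial enzyme RPOTm, was at least 2-fold higher than in Col-0 in all 3 mutants, at 1.33 against 0.592 FPKM in *pkr2-2* (1.17), 1.34 against 0.649 in *pkl-1* (1.05) and 1.75 against 0.690 in the double mutant (1.34). AT5G15700, for RPOTmp of both organelles, was at 1.20 against 0.615 FPKM in *pkl-1* (0.96) and 1.05 against 0.654 in the double mutant (0.68). Both genes were below 1 FPKM in Col-0, so they passed the filter through the mutants alone. The comparisons share the Col-0 libraries, so the values in the 3 mutants are not independent of each other.

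The 4 chloroplast genes for the PEP core were all lower by at least 2-fold in the double mutant than in Col-0, while, of the sigma factor transcripts, *SIG3* and *SIG5* were higher by at least 2-fold. *rpoA* was at 2.26 against 7.25 FPKM (-1.69) and *rpoB* at 1.301 against 4.36 (-1.74), and the median of the 4 was -2.39. *rpoC1* and *rpoC2* were below 1 FPKM in *pkl-1* and the double mutant, so there they passed the filter only through Col-0 or *pkr2-2*. In *pkl-1* 3 of 4 were lower by 2-fold (median -1.73), with *rpoB* at 1.32 against 4.10 FPKM, and in *pkr2-2* none was (median 0.03). Of all genes, 11.2% were 2-fold lower in the double mutant than in Col-0, 8.34% in *pkl-1* and 3.11% in *pkr2-2*. Against *pkr2-2*, all 4 were lower in the double mutant by 2-fold, with log2 fold changes of -2.21 for *rpoA* and -1.83 for *rpoB*. Against *pkl-1*, only 2 of the 4 passed the filter (median -0.61). *rpoA* was at 2.57 against 5.59 FPKM (-1.12), while *rpoB* hardly differed, at 1.48 against 1.58 (-0.09). Of 10 further chloroplast genes, 8 passed the filter, and all 8 were lower by 2-fold in the double mutant (median -2.33). Among them, *ndhF* (0.365 FPKM), *clpP* (0.710) and *accD* (0.882) were below 1 FPKM in the double mutant and passed through Col-0 alone. *psbD*, the best known target of SIG5, differed most, at 4.41 against 32.9 FPKM (-2.90) in the same comparison in which *SIG5* was 2.76-fold higher. In *pkr2-2*, where *SIG5* was 2.11-fold higher, *psbD* was at 31.1 against 28.2 FPKM (0.14), and in *pkl-1* at 9.83 against 30.9 (-1.65). The mRNA was selected with oligo(dT), so these are levels of the chloroplast RNA that this selection kept. *psbN* and *psaJ*, known targets of SIG3 and SIG2, were listed at 0 in all 5 tables. *psaA*, for a photosystem I core protein, was at 2.14 against 12.4 FPKM in the double mutant (-2.53) and 4.85 against 11.7 in *pkl-1* (-1.27). Against *pkr2-2*, the double mutant had all 8 lower by 2-fold, and against *pkl-1* 7 of 8. In the comparison with *pkr2-2*, *clpP* differed most (-3.41), then *psbD* (-3.03), *accD* (-2.97) and *rbcL* (-2.59). There *clpP*, *accD* and *ndhF* were below 1 FPKM in the double mutant, so they passed the filter through *pkr2-2* alone. In the comparison with *pkl-1*, *clpP* and *ndhF* likewise passed through *pkl-1* alone. The shares of all genes 2-fold lower were 9.56% against *pkr2-2* and 2.94% against *pkl-1*. *accD*, for a subunit of acetyl-CoA carboxylase and a known target of the nucleus-encoded polymerase, was at 1.00 against 2.79 FPKM in this last comparison (-1.48).

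**Figure D5:**
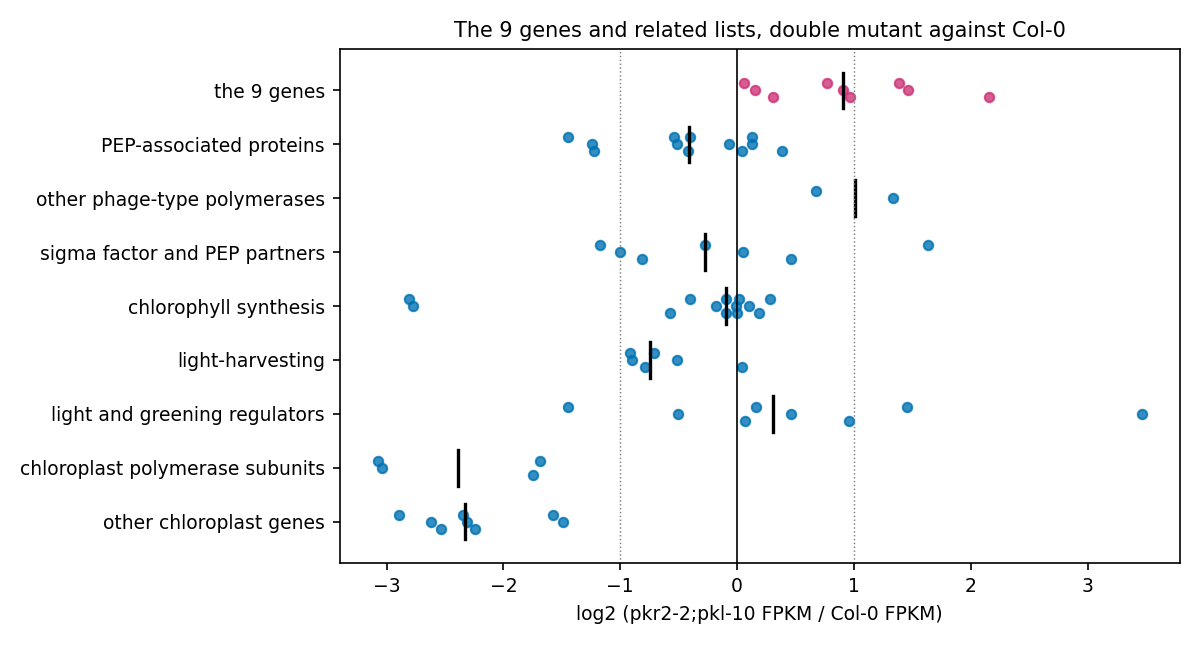
Log2 ratio of FPKM in the double mutant to Col-0 for the 9 genes (magenta) and the genes of the related lists that passed the level filter (blue). Each point is a gene, black bars are medians and dotted lines mark 2-fold. The 9 genes lie between 0.06 and 2.16 (median 0.91), and the chloroplast polymerase subunits between -3.07 and -1.69 (median -2.39).

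In the double mutant against Col-0, most genes that GLK factors are known to activate differed less than *GLK1*, and not in 1 direction. *PORB* and *PORA* differed more in size than *GLK1* and were lower. Of 13 genes of chlorophyll synthesis, none was 2-fold higher and 2 were 2-fold lower in the double mutant than in Col-0 (median -0.09). Of all genes, 15.2% were 2-fold higher and 11.2% lower, so the 2 lower genes are near the share of all genes. *PORB*, for the light-dependent protochlorophyllide oxidoreductase, was at 14.4 against 100.5 FPKM (-2.81), and *PORA*, its relative, at 0.166 against 1.14 (-2.78). *PORB* was also lower in *pkr2-2* (24.2 against 86.3 FPKM, -1.83), but not in *pkl-1* (99.9 against 94.6). For *PORB* the double mutant was well below *pkl-1* (16.3 against 119.7 FPKM, -2.87). *PORA*, unlike *PORB*, was lower in *pkl-1* than in Col-0, at 0.236 against 1.07 FPKM (-2.18). In *pkl-1* and the double mutant *PORA* was below 1 FPKM, so it passed the filter through Col-0 alone. Between the double mutant and Col-0 the other 11 differed by less than 2-fold. Among them, *HEMA1*, for the first enzyme specific to tetrapyrrole synthesis, was at 39.5 against 44.8 FPKM. Set against the single mutants, where *GLK1* was also higher, the double mutant had 9 of the 12 chlorophyll genes that passed the filter above *pkr2-2* (median 0.18, beside 0.01 over all genes) and 9 of 12 above *pkl-1* (median 0.15, beside 0.05), none of them higher by 2-fold. Of 6 genes for light-harvesting proteins, 5 were lower in the double mutant (median -0.75), none past 2-fold, and *LHCB3* was at 503 against 950 FPKM. In *pkr2-2* all 6 were lower (median -0.30), as in *pkl-1* (median -0.70). Unlike most of the chlorophyll genes, 5 of these 6 were lower in the double mutant than in *pkr2-2* (median -0.44). Below *pkl-1* were 4 of the 6 (median -0.02), and none differed by 2-fold from either single mutant. *PORA*, *HEMA1* and *LHCB3* were chosen for mention after their values were seen.

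Among 12 regulators of light signalling and greening, 8 passed the filter in the comparison of the double mutant with Col-0. Of these, 2 were 2-fold higher and 1 was 2-fold lower, beside 15.2% and 11.2% of all genes. *HY5*, for a light-response bZIP factor that is known to activate *SIG5*, was at 20.6 against 7.53 FPKM in the double mutant (1.45). It was also higher in *pkr2-2* (14.2 against 6.46 FPKM, 1.14), close to its Col-0 level in *pkl-1* (8.17 against 7.08, 0.21), and higher in the double mutant than in *pkl-1* (23.5 against 9.77, 1.26). *SIG5* and *HY5* were both past 2-fold in the *pkr2-2* and the double mutant tables with Col-0, comparisons that share the Col-0 libraries. In *pkl-1* against Col-0, *SIG5* was higher (0.69) while *HY5* was close to its Col-0 level (0.21). Between the double mutant and *pkl-1*, *HY5* was past 2-fold (1.26) and *SIG5* was not (0.79). A link between *HY5* and *SIG5* was not tested. *HYH*, the close relative of *HY5*, was at 10.4 against 1.83 FPKM when the double mutant was set against *pkl-1* (2.50). Below 1 FPKM in Col-0, it was also higher in *pkr2-2* (4.87 against 0.711 FPKM, 2.78) and in the double mutant (9.13 against 0.828, 3.46), values named after they were seen. In *pkr2-2*, 3 of 8 regulators were at least 2-fold higher and none was 2-fold lower, beside 5.09% and 3.11% of all genes. Below their Col-0 level were 5 of the 8, and the median log2 fold change was -0.25. Of those 2-fold higher, *HYH* and *PIL6* (1.57 against 0.745 FPKM, named after its value was seen) passed the filter through *pkr2-2* alone. *PIF4*, for a growth-promoting factor that represses greening genes in the dark, was the one 2-fold lower in the double mutant (0.438 against 1.20 FPKM, -1.45), and is likewise named after its values were seen. The transcripts of the *GNC* and *CGA1* GATA factors, which also promote greening, were below 0.3 FPKM in both genotypes of the table with the double mutant and Col-0.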

How the data were processed

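Seed mRNA of 8 samples (2 biological replicates of 4 genotypes) was enriched with oligo(dT), treated with Ribo-Zero and sequenced as paired ends. Reads were trimmed (Fastp) and aligned to TAIR10.1 (TopHat2 2.1.1) by the authors, who computed FPKM with Cufflinks 2.2.1.3 (Cuffdiff, geometric normalization), once for each of 5 comparisons, per the labels and the methods. The FPKM values deposited by the authors are pooled over the replicates of a genotype. Strand setting is not given in the sources used here. The other columns of the tables hold the authors' own fold changes, test statistics, p-values and q-values, and were not used.

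Log2 ratios were taken within a table without a pseudocount. All genes with at least 1 FPKM in 1 or both genotypes and above 0 in both formed the background. Fragment numbers were FPKM times the longest transcript divided by the lowest step of 5463 long single-transcript genes, and are approximate. Per-sample depth is not known from pooled values. Intervals were exact (Clopper-Pearson, conditional on the sum). Named beside the 9 genes were, in each related list and comparison, up to 2 genes highest and 2 lowest past 2-fold and reaching 1 FPKM in each of both genotypes (exceptions are marked). The members and lists were chosen with earlier results of these data known. Of 38209 gene IDs, 38158 matched the RefSeq annotation. The steps were tested on simulated data of the double mutant against Col-0 (19746 genes with 1 annotated transcript). There 200 of 200 genes changed at a log2 fold change of 2 were recovered and 0 of 6319 unchanged genes at 5 FPKM or more were called. Of 1000 intervals, 95.2% held the true ratio. Counts were drawn with counting error alone, and the intervals took the simulated counts and depth directly. The check thus does not cover spread between replicates, estimated fragment numbers, several transcripts per gene or levels under 5 FPKM. Alternatives were pseudocounts, centring, ratios built from other tables, fold thresholds and level filters. The software was Python 3.11.15 with scipy 1.17.1 for intervals, pandas 2.3.3 and numpy 2.4.6 for tables and matplotlib 3.10.9 for plots.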

Additional observations from a re-analysis of the deposited data

Results flagged for a closer look

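*SIG6* is listed because its pooled values moved in opposite directions in different genetic backgrounds, with the counting intervals on either side of 0. On loss of *PKL* its log2 fold change was -0.17 in Col-0 and 0.51 in *pkr2-2*, a difference of 0.68. On loss of *PKR2* it was -0.45 in Col-0 and 0.24 against *pkl-1*, a difference of 0.69. These are the same 4 genotypes read along their sides, so the second value is not independent of the first. The difference was not tested, since values per replicate are not in the tables used, and the *pkl* alleles differ between the single and the double mutant.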

How the results depend on the processing

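No paired analysis was possible because the tables hold values pooled over replicates, and for the same reason no replicate could be left out. The numbers of genes past 2-fold were 1 (*pkr2-2*), 2 (*pkl-1*) and 3 (double mutant) with Col-0 as reference, and 2 (*pkr2-2* as reference) and 1 (*pkl-1* as reference) for the double mutant. In this order they were 0, 0, 1, 1 and 0 at a log2 threshold of 2 and 2, 5, 6, 6 and 2 at 0.5. With 1 FPKM added, in the same order, they were 0, 0, 2, 1 and 0, and *GLK1* in the double mutant against Col-0 went from 2.16 to 0.88. With 0.1 FPKM added, or through the tables with the double mutant, the count in *pkl-1* was 1, *SIG3*. With at least 5 FPKM, there were 0 in *pkl-1*, 1 in the double mutant against Col-0, 1 against *pkr2-2* and 0 against *pkl-1*. With no filter, there were 2 in *pkr2-2*, the second being *GLK1*. Adding 1 FPKM lowered the median log2 fold change to 0.29 (*pkl-1*) and 0.57 (double mutant against Col-0). Of the values of single genes under the alternatives, 182 moved by less than the distance from the middle of their counting interval to its bound and 7 by more, all with 1 FPKM added, and 1 changed sign, *SIG2* in the double mutant against *pkl-1* (from 0.03 to -0.02 after centring). Ratios built from other tables differed from the direct ones by at most 0.02 on the log2 scale. *GLK1* rests on about 8 to 126 fragments and *SIG4* on 27 to 80, which limits both.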
